A study of Mus musculus with 2 samples.

Results

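The genes that build, shape and anchor actin filaments were followed in native mouse eosinophils. They are 51 genes of 23343 in the deposited tables, chosen by symbol from a list of the actins, their binding proteins, the motor that pulls on them and the small GTPases that steer them. The RNA came from cells positive for CCR3 and SiglecF, sorted from the pooled bone marrow of naïve C57BL6J mice that had received no treatment. There are 2 libraries, from 2 independent sorts of 1 group, here called sort 2 and sort 1 after their titles. No second condition or genotype is labelled, and the number of mice behind a pool was not given in the sources used here. Libraries were poly(A)-selected and stranded, with dUTP in the protocol.

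Actin is held in cells as free subunits and as filaments, and leukocytes crawl, engulf and release granules by shifting the balance between these states. Thymosins and profilin bind free subunits, the Arp2/3 complex starts branches on existing filaments when WASP or WAVE proteins switch it on, and cofilin, coronin and gelsolin take filaments apart. Plastin, filamin and alpha-actinin tie filaments together, myosin II pulls on them, and talin, vinculin and the ERM proteins couple them to the membrane. Small GTPases, their guanine nucleotide exchange factors and the chaperones that hold them inactive set where this happens.

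Sort 2 held 9264150 counted reads and sort 1 held 10087743. Levels are RPKM values, which are reads scaled by transcript length and by the size of the library, so genes of different length can be set side by side. Eosinophil markers stood high, with all 9 listed genes detected and summed RPKM values of 3539 in sort 2 and 2749 in sort 1. All 9 listed neutrophil genes were also detected, summing to 3943 RPKM in sort 2 and 4217 in sort 1, led by Retnlg, S100a9 and S100a8. The 4 neutrophil precursor genes summed to 288 RPKM in sort 2 and 250 RPKM in sort 1. Platelet, T cell and NK cell, and erythroid markers summed to at most 3.59 RPKM in sort 2 and 3.40 in sort 1, B cell markers to 4.18 in sort 2 and 6.38 in sort 1, and macrophage markers to 28.7 in sort 2 and 41.0 in sort 1. Stromal, endothelial and smooth muscle markers summed to 11.7 RPKM in sort 2 and 12.3 RPKM in sort 1, most of it Pecam1, which leukocytes also express. Xist had 5 reads in sort 2 and 47487 in sort 1, while the Y-linked gene Kdm5d had 756 in sort 2 and 0 in sort 1, so the pools differ in sex-linked transcripts as well as in the sort. With 1 library a sort, a ratio between sorts has no replicate check, and no p-value was computed. A gene with 0 reads in a library could have had up to 3 by counting error alone.

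Every one of the 51 genes was detected, meaning that its RPKM was no lower than 1 in either sort, against 30.2% of all genes. Each of them also passed an RPKM of 5 in both sorts, against 11.6% of all genes. The members were chosen with earlier results of these data known, so the contrasts with all genes here are descriptions and not tests. Levels of 100 or more in each sort were reached by 10 of the 51, against 66 of 23343 genes. The median of the 51 was 30.0 RPKM in sort 2 and 37.8 RPKM in sort 1, where the median of all detected genes was 3.97 in sort 2 and 4.07 in sort 1. The 51 genes took 4.20% of the counted reads in sort 2 (95% Wilson interval 4.19 to 4.22) and 4.56% in sort 1 (4.55 to 4.57). Rn45s, a ribosomal RNA gene, took 0.963% of the counted reads in sort 2 and 9.07% in sort 1, and without it the share of the 51 was 4.24% in sort 2 and 5.02% in sort 1. The intervals cover counting error only, as these reads carry no molecular identifiers and are not independent molecules. In bulk RNA, fewer cells of a type and less RNA per cell cannot be told apart. The RNA of other cells in the gate also counts towards these levels, and the part of the neutrophil transcripts in them was not tested.

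**Figure D1:**
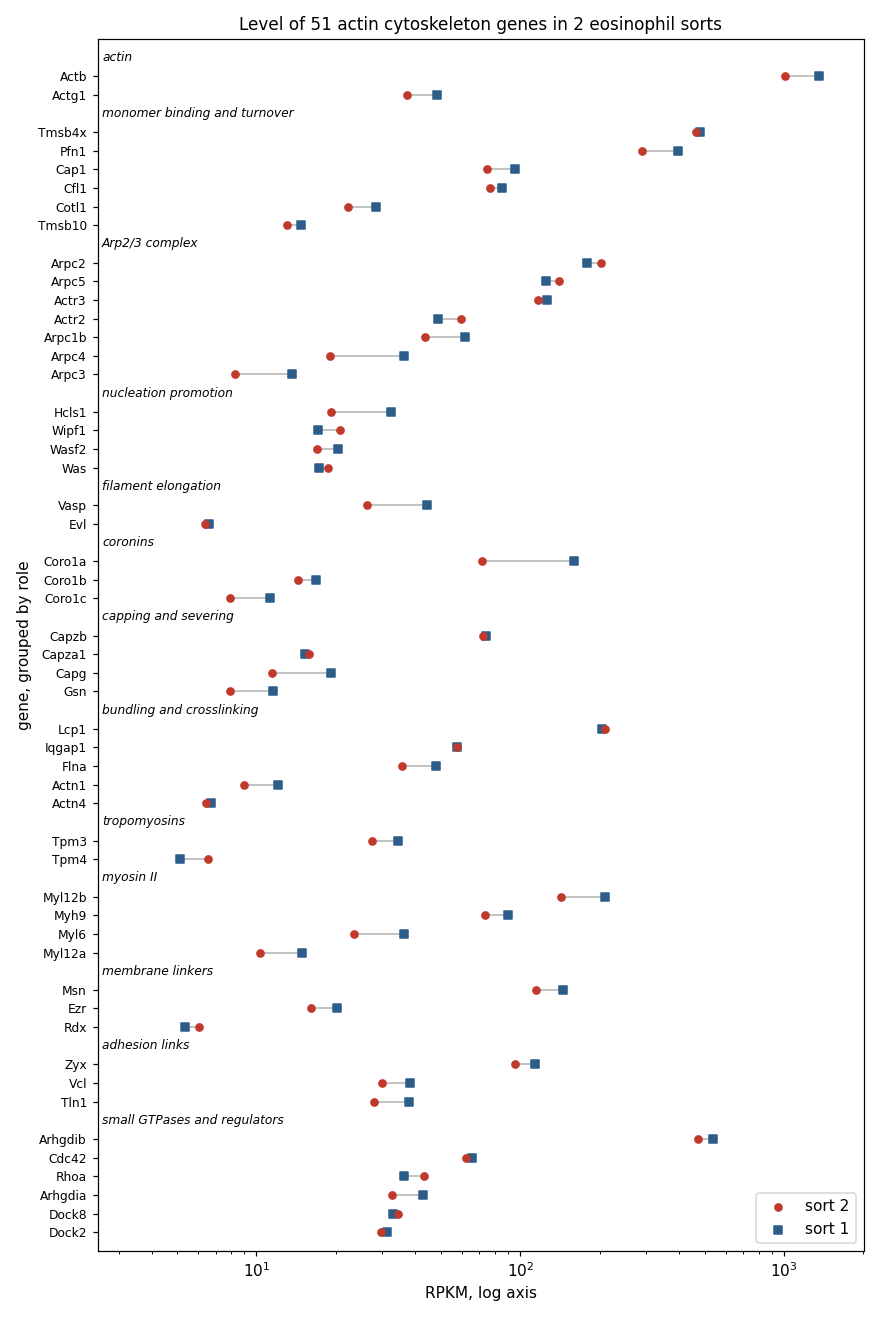
RPKM (horizontal log axis) of each of the 51 genes, grouped by role, in sort 2 (red circle) and sort 1 (blue square), with a grey line joining the values of the 2 libraries. Actb stands alone on the right at 1008 RPKM in sort 2 and 1353 RPKM in sort 1, and Coro1a has the widest gap between the sorts on this log axis, at 71.7 in sort 2 and 160 in sort 1.

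Among the actins, nearly all transcript was that of Actb, cytoplasmic beta-actin. Actb had 1008 RPKM in sort 2 and 1353 RPKM in sort 1, or 1181 ± 244 (SD, n = 2), and it ranked 4 among all genes by mean RPKM. Actg1, cytoplasmic gamma-actin, had 37.1 RPKM in sort 2 and 48.2 RPKM in sort 1, so that Actb was 27.1-fold higher in sort 2 and 28.1-fold higher in sort 1. The actins of muscle were close to absent, with Acta2 of smooth muscle at 0.843 RPKM in sort 2 and 0.883 RPKM in sort 1 and Acta1, Actc1 and Actg2 at no more than 4 reads in either sort. Actb lies on chromosome 5 at 142903116 to 142906724 and Actg1 on chromosome 11 at 120345690 to 120348484, both on the minus strand of mm10. The level of Actg1 is uncertain because 56.7% of its 50-base words also occur in transcripts of other genes, mostly processed pseudogenes, against 14.2% for Actb. How reads that fit several places were handled was not given in the sources used here.

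Genes whose proteins hold free actin subunits were also among the highest. Tmsb4x, thymosin beta-4, had 462 RPKM in sort 2 and 480 RPKM in sort 1, or 471 ± 13.0 (SD, n = 2), a coefficient of variation of 2.77%. Pfn1, profilin, which feeds subunits to growing ends, had 290 RPKM in sort 2 and 396 RPKM in sort 1, or 343 ± 74.8 (SD, n = 2). Their relatives were low or absent: Pfn2 had 1.04 RPKM in sort 2 and 1.44 RPKM in sort 1, and Tmsb15a had no read. Tmsb10, thymosin beta-10, a close relative of Tmsb4x, reached only 13.1 RPKM in sort 2 and 14.7 RPKM in sort 1. The level of Tmsb4x over that of Tmsb10 was thus 35.4-fold in sort 2 and 32.5-fold in sort 1, although 56.8% of the 50-base words of Tmsb10 also occur elsewhere, most of them in the gene model Gm9844, and none of Tmsb4x do.

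The genes of filament turnover include Cfl1, cofilin-1, which severs ageing filaments, and Cap1, which recycles the released subunits. Cfl1 had 76.9 RPKM in sort 2 and 84.9 RPKM in sort 1. It held 75.3% in sort 2 and 78.6% in sort 1 of the summed RPKM of the cofilins, with Dstn, destrin, at 22.5 RPKM in sort 2 and 20.7 RPKM in sort 1 and Cfl2, the muscle form, at 2.71 in sort 2 and 2.404 in sort 1. Cap1 had 74.6 RPKM in sort 2 and 95.8 RPKM in sort 1, against 0.0135 in sort 2 and 0.0945 in sort 1 for Cap2. Cotl1, a coactosin-like protein that binds filaments and also 5-lipoxygenase, had 22.2 RPKM in sort 2 and 28.5 RPKM in sort 1. Its sorts do not reach the range of Cfl1 or Cap1.

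The 7 genes of the Arp2/3 complex, whose proteins are present once each in the assembled complex, were far apart in transcript level. Arpc2, which with Arpc4 forms the core of the complex, was highest at 202 RPKM in sort 2 and 178 RPKM in sort 1. Arpc5 had 140 RPKM in sort 2 and 125.5 RPKM in sort 1, and Actr3, the actin-like Arp3 subunit, had 117 in sort 2 and 126 in sort 1. Actr2, the other actin-like subunit, was lower at 59.9 RPKM in sort 2 and 48.9 RPKM in sort 1, near Arpc1b at 43.5 in sort 2 and 61.5 in sort 1, and the sorts of these genes overlap. At the bottom stood Arpc4 with 19.1 RPKM in sort 2 and 36.2 RPKM in sort 1 and Arpc3 with 8.31 in sort 2 and 13.7 in sort 1. The span from Arpc3 to Arpc2 was 24.3-fold in sort 2 and 13.1-fold in sort 1, beyond the spread of any subunit between the sorts. Of the words of Arpc3 and Arpc2, 0% and 0.221% occur in other genes, whereas for Actr3 it is 50.02%. For the subunits that come in several forms, the haematopoietic Arpc1b exceeded Arpc1a by 7.12-fold in sort 2 and 8.47-fold in sort 1, and Arpc5 exceeded Arpc5l by 37.3-fold in sort 2 and 38.9-fold in sort 1. Actr3b, the other Arp3 gene, had 1 read in sort 2 and 0 in sort 1.

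Transcripts of the proteins that switch the Arp2/3 complex on lay within a narrow range. Was, the Wiskott-Aldrich syndrome protein of blood cells, had 18.7 RPKM in sort 2 and 17.3 RPKM in sort 1, and its partner Wipf1, which stabilises it, had 20.7 in sort 2 and 17.1 in sort 1. Wasf2, a WAVE protein, had 17.0 RPKM in sort 2 and 20.4 RPKM in sort 1, and Hcls1, the haematopoietic relative of cortactin, had 19.1 in sort 2 and 32.3 in sort 1. In sort 2 these 4 genes spanned 1.22-fold, in sort 1 1.89-fold. Their relatives were lower. Wipf2, a relative of Wipf1, had 5.32 RPKM in sort 2 and 5.76 RPKM in sort 1, and held 20.4% in sort 2 and 25.2% in sort 1 of the summed RPKM of the family. Wasl had 3.27 RPKM in sort 2 and 2.64 RPKM in sort 1, Cttn had 3 reads in sort 2 and 5 reads in sort 1, and Wasf1, Wasf3 and Wipf3 had none. Among the partners of Wasf2 in the WAVE complex, Nckap1l, the haematopoietic Hem1 subunit, had 35.0 RPKM in sort 2 and 37.6 RPKM in sort 1, against 0.0945 in sort 2 and 0.0292 in sort 1 for Nckap1. Cyfip2 had 18.8 RPKM in sort 2 and 21.1 RPKM in sort 1, Abi1 15.5 in sort 2 and 15.0 in sort 1, and Brk1 11.04 in sort 2 and 13.8 in sort 1.

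Of the proteins that lengthen filaments, Vasp, which protects growing ends from capping, had 26.2 RPKM in sort 2 and 44.3 RPKM in sort 1. Evl, its relative, had 6.36 RPKM in sort 2 and 6.62 RPKM in sort 1, and Enah, the third of the family, had 0.292 in sort 2 and 0.187 in sort 1. Formins, which extend unbranched filaments, were present with 7 of 10 detected. Fmnl1, a formin of leukocytes, led them at 24.8 RPKM in sort 2 and 32.1 RPKM in sort 1, followed by Diap1, the mDia1 gene, at 9.90 in sort 2 and 11.7 in sort 1.

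Coro1a, coronin-1A of leukocytes, which binds filaments and the Arp2/3 complex, had 71.7 RPKM in sort 2 and 160 RPKM in sort 1. By ratio, no other member was as far apart between the sorts, although Actb and Pfn1 differed by more RPKM. Coro1b had 14.4 RPKM in sort 2 and 16.8 RPKM in sort 1 and Coro1c 7.97 in sort 2 and 11.2 in sort 1, so that Coro1a led the coronins in both libraries with 65.5% in sort 2 and 76.8% in sort 1 of their summed RPKM. Part of the level of Coro1b is uncertain, since 20.8% of its words also occur in Ptprcap.

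Capping protein is a heterodimer that sits on the growing ends of filaments. Its beta subunit Capzb had 72.3 RPKM in sort 2 and 74.01 RPKM in sort 1. Of the alpha subunits, Capza1 had 15.8 RPKM in sort 2 and 15.3 RPKM in sort 1 and Capza2 had 18.9 in sort 2 and 21.2 in sort 1, the 1 family of 26 in which a gene outside the 51 led. The level of Capza1 is uncertain, as 73.8% of its words occur in other genes, nearly all in the pseudogene Gm3608. Capg, a gelsolin relative that caps without severing, had 11.4 RPKM in sort 2 and 19.1 RPKM in sort 1, and Gsn, gelsolin, which severs and caps, had 7.92 in sort 2 and 11.5 in sort 1. Among the remaining gelsolin relatives, Svil had 17.5 RPKM in sort 2 and 19.8 RPKM in sort 1 and Flii 12.2 in sort 2 and 15.8 in sort 1. Vil1, Scin and Avil had at most 12 reads in a sort. Svil, outside the 51, was above Capg and Gsn in each sort, but the gelsolin relatives were not among the 26 families compared.

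Among the genes of filament bundling and crosslinking, 1 stood highest in transcript level. Lcp1, L-plastin, the plastin of leukocytes, had 210.0 RPKM in sort 2 and 204 RPKM in sort 1, or 207 ± 4.17 (SD, n = 2). Pls1 had no read, Pls3 had 0 in sort 2 and 9 in sort 1, and Fscn1, fascin, had 0 in sort 2 and 7 in sort 1. Iqgap1, a scaffold that links filaments to Cdc42 and Rac, was almost the same in both libraries at 57.5 RPKM in sort 2 and 57.6 RPKM in sort 1. Flna, filamin A, had 35.6 RPKM in sort 2 and 48.0 RPKM in sort 1. The alpha-actinins were low, Actn1 at 8.97 RPKM in sort 2 and 12.1 RPKM in sort 1 and Actn4 at 6.42 in sort 2 and 6.74 in sort 1, and their muscle forms Actn2 and Actn3 had at most 1 read. Among tropomyosins, which coat filaments, Tpm3 had 27.5 RPKM in sort 2 and 34.3 RPKM in sort 1, Tpm4 6.58 in sort 2 and 5.12 in sort 1, and Tpm1 4.69 in sort 2 and 5.50 in sort 1. Of the words of Tpm3, 66.8% occur in other genes, chiefly Tpm3-rs7.

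Of the myosin II heavy chains, nearly all transcript was that of the nonmuscle A form. Myh9, the heavy chain, had 73.6 RPKM in sort 2 and 90.1 RPKM in sort 1, and 99.4% in sort 2 and 99.5% in sort 1 of the summed RPKM of the 4 heavy chains compared, with Myh10 at 0.462 in sort 2 and 0.438 in sort 1. The regulatory light chain Myl12b had 142 RPKM in sort 2 and 209 RPKM in sort 1, Myl12a had 10.3 in sort 2 and 14.9 in sort 1, and Myl9 of smooth muscle had no read. Myl12b and Myl12a are near-identical neighbours, and 29.6% of the words of Myl12a occur in other genes, mainly Myl12b, so the split between them is uncertain. Myl6, the essential light chain, had 23.4 RPKM in sort 2 and 36.2 RPKM in sort 1, below the heavy chain in each sort, and 53.2% of its words occur in pseudogenes.

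Links to the membrane were led by Msn, moesin, at 115 RPKM in sort 2 and 145 RPKM in sort 1. Ezr, ezrin, had 16.1 RPKM in sort 2 and 20.2 RPKM in sort 1 and Rdx, radixin, 6.07 in sort 2 and 5.38 in sort 1, which kept the order moesin, ezrin, radixin in both libraries without overlap. At integrin adhesions, Zyx, zyxin, had 95.6 RPKM in sort 2 and 113 RPKM in sort 1. Tln1, talin, which activates integrins, had 27.8 RPKM in sort 2 and 37.8 RPKM in sort 1, Vcl, vinculin, had 30.0 in sort 2 and 38.3 in sort 1, and the sorts of these genes overlap. Tln2 had 8 reads in sort 2 and 0 in sort 1. Fermt3, the kindlin of blood cells, had 16.6 RPKM in sort 2 and 24.5 RPKM in sort 1, whereas Fermt2 had no read.

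Among the small GTPases and their regulators, the chaperone gene Arhgdib stood above the GTPases, while its relative Arhgdia lay below Cdc42 in both sorts. Arhgdib, the GDP dissociation inhibitor of blood cells, had 471 RPKM in sort 2 and 538 RPKM in sort 1, a level below that of Actb and overlapping that of Tmsb4x, and Arhgdia, the ubiquitous form, had 32.5 in sort 2 and 42.7 in sort 1. Cdc42 had 62.3 RPKM in sort 2 and 65.7 RPKM in sort 1 and Rhoa 43.0 in sort 2 and 36.2 in sort 1. Rac2, the haematopoietic Rac, had 65.3 RPKM in sort 2 and 81.9 RPKM in sort 1, Rac1 49.4 in sort 2 and 42.5 in sort 1, and Rhog 21.5 in sort 2 and 46.3 in sort 1. The exchange factors Dock8, for Cdc42, and Dock2, for Rac, were close to each other. Dock8 had 34.3 RPKM in sort 2 and 33.1 RPKM in sort 1 and Dock2 29.6 in sort 2 and 31.1 in sort 1, followed by Dock11 at 23.5 in sort 2 and 17.8 in sort 1 and Dock5 at 12.6 in sort 2 and 13.7 in sort 1, while Dock1 had 0.177 in sort 2 and 0.149 in sort 1.

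Across 26 families in which members were set beside their relatives, the leading gene was the same in both sorts in 26 of 26, and 25 were led by 1 of the 51. That count depends on the families drawn up. The gelsolin relatives, which Svil led in both sorts, were not among them. In 18 families the leader held at least 80% of the summed RPKM in each sort. The list of related genes held 107 genes, of which 106 were matched to the tables and 56 were detected, with medians of 1.44 RPKM in sort 2 and 1.51 RPKM in sort 1. In the order of the 51 levels, 39 of 50 neighbouring pairs overlapped between sorts, so that most adjacent ranks are not distinguished. Gaps without overlap lay, for example, between Actb and Arhgdib, between Tmsb4x and Pfn1, and between Pfn1 and Lcp1.

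**Figure D2:**
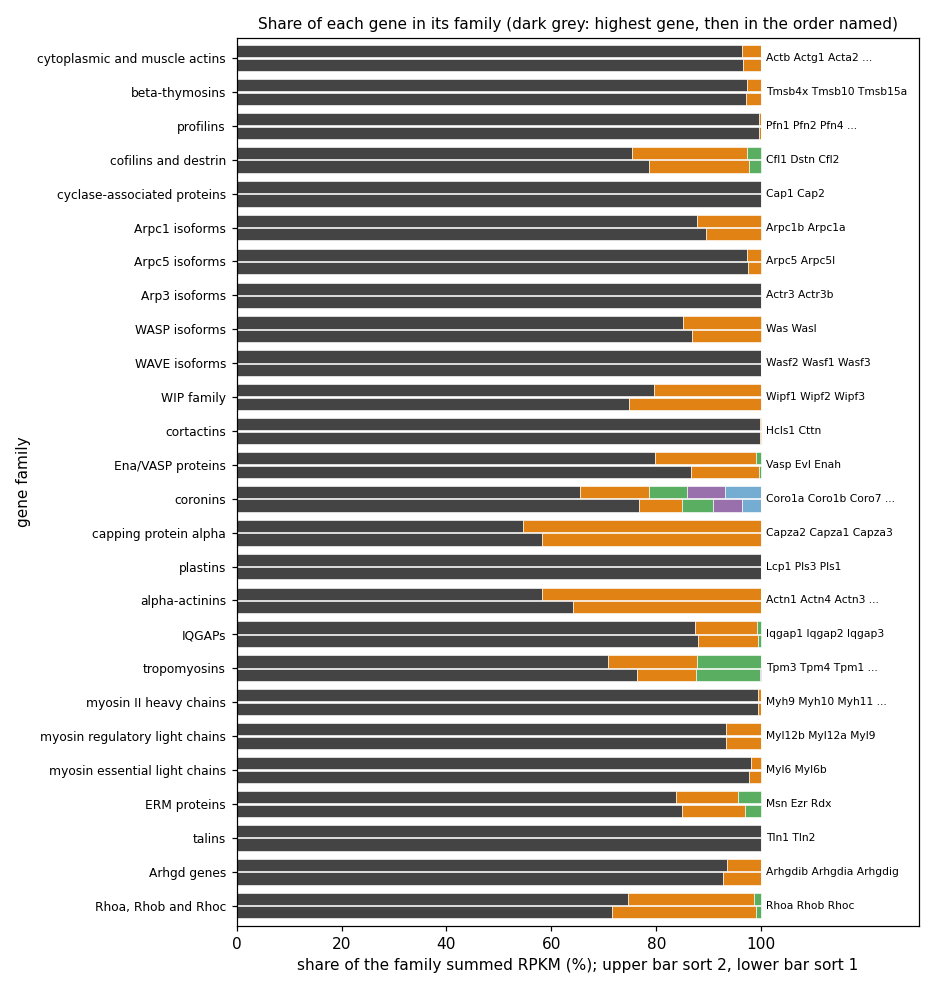
Share of the summed RPKM of each of 26 gene families (horizontal axis, percent) held by each gene, in sort 2 (upper bar) and sort 1 (lower bar), with the leading genes named on the right. Dark grey is the leading gene, which holds at least 80% in both sorts in 18 families; capping protein alpha, alpha-actinins and coronins are among the more divided.

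For 8 members the tables gave several rows, that is several transcript starts or ends, and the division among them differed between genes. Lcp1 was read mostly from its upstream start, at chromosome 14 position 75131123, which held 91.1% of its RPKM in sort 2 and 87.8% in sort 1. The start at 75136425 held 8.89% in sort 2 and 12.2% in sort 1. Tmsb10 was read mostly from its outermost start, at chromosome 6 position 72958748 on the minus strand, with 82.0% in sort 2 and 94.0% in sort 1. Tpm3 had reads for its start at chromosome 3 position 90079521 and none for the one upstream at 90072651. Capg was divided between the starts at 72549273 and 72549647 of chromosome 6, and their order was opposite in the sorts, the first holding 54.1% in sort 2 and 35.8% in sort 1, the second 42.1% in sort 2 and 62.3% in sort 1. Capzb kept 85.2% in sort 2 and 75.5% in sort 1 at its first start, but the row starting at 139233383 of chromosome 4 had 382 reads in sort 2 and 0 in sort 1, and the row at 139194111 had 333 in sort 2 and 1213 in sort 1. Evl was spread over 3 starts of chromosome 12, with 59.6% in sort 2 and 73.7% in sort 1 at 108554720, 28.1% in sort 2 and 16.1% in sort 1 at 108605766, and the rest at 108635753. Rdx was read almost wholly at 52047941 of chromosome 9, with 99.9% in sort 2 and 99.8% in sort 1. Its other start, at 52047150, had 1 read in each sort. Gsn had reads from a single row in sort 2 and from all 3 in sort 1, with 0 reads in sort 2 and 155 reads in sort 1 at 35266744 of chromosome 2. Rows of 1 gene share most exons, and how the authors divided reads among them was not given in the sources used here.

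**Figure D3:**
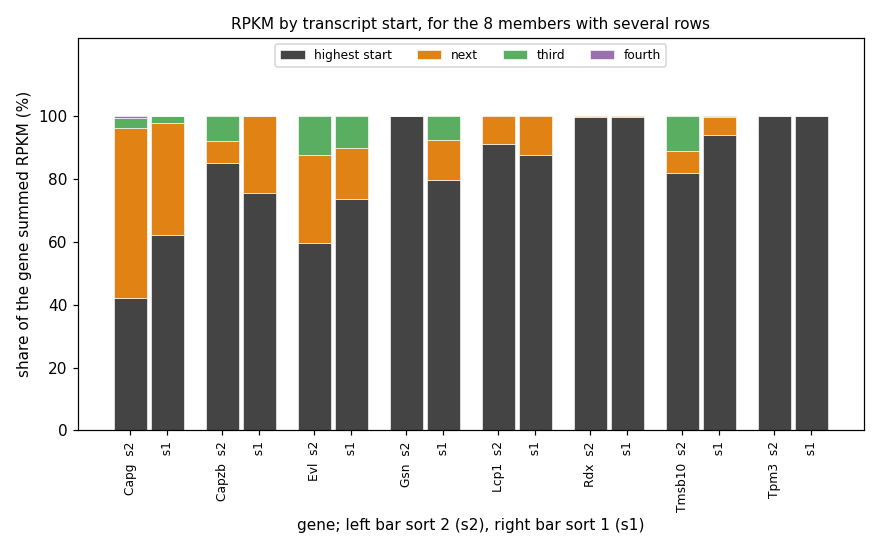
Share of the summed RPKM of a gene (vertical axis, percent) in each of its rows, for the 8 members with several rows, in sort 2 (left bar, s2) and sort 1 (right bar, s1). Lcp1, Rdx and Tpm3 are alike in the sorts, whereas the rows of Capg, Capzb and Gsn are divided differently.

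The upstream sequences of the leading starts of Lcp1 and Tmsb10 are shown because these rows carried most of the RPKM of their genes. They are RefSeq sequences of GRCm38.p6, the assembly of mm10, 80 bases each, 5′ to 3′ on the strand of the gene, with no motif searched for found in them. Lcp1 lies at chr14:75131021-75131100 on the plus strand and Tmsb10 at chr6:72958749-72958828 on the minus strand. Their GC contents were 70.0% and 72.5%.
Lcp1: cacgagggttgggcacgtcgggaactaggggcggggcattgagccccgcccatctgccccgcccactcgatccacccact
Tmsb10: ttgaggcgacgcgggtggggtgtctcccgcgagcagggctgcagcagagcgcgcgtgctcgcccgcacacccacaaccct

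Actin genes are known targets of serum response factor, which binds the CArG box, 10 bases with CC and GG around a run of A and T. Within 250 bases upstream of RefSeq starts, a CArG box was found for 4 of the 48 members with an entry, or 8.33%, against 1.62% of 27025 genes. Actb, Cotl1 and Coro1b were not searched. Those with the box were Actg1, Arpc4, Myl6 and Vcl, and for Myl6 the start concerned is not that of the deposited row. TATAAA on the sense strand was found upstream of 2 of the 48, Arhgdib and Cdc42, or 4.17%, against 8.94% of genes. For Arhgdib too the start concerned is not that of the deposited row, and for Cdc42 the match begins at -235. GAGGAAGT, a core bound by PU.1, was found on either strand in 0 of 48 against 2.79%. These are matches of letters and not shown to be sites. The windows that hold the CArG box, in capitals, of Actg1 (chr11:120348546-120348625, minus strand), Vcl (chr14:20929148-20929227, plus strand) and Arpc4 (chr6:113377863-113377942, plus strand) are given below, to show where it lies. Counted from the start of the gene, it begins at -90, -227 and -250, and 21 bases of the Arpc4 window lie in annotated exons.
Actg1: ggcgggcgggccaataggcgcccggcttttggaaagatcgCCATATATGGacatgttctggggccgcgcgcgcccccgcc
Vcl: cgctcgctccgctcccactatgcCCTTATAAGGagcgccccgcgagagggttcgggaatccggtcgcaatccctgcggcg
Arpc4: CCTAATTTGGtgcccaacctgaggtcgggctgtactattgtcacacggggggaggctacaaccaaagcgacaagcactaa
In level the range of Vcl overlapped those of the other 2 genes: Actg1 had 37.1 RPKM in sort 2 and 48.2 RPKM in sort 1, Vcl 30.0 in sort 2 and 38.3 in sort 1, and Arpc4 19.1 in sort 2 and 36.2 in sort 1. Srf itself had 3.80 RPKM in sort 2 and 4.08 RPKM in sort 1, and its actin-sensing coactivator Mkl1 had 26.5 in sort 2 and 30.97 in sort 1, so that both were detected.

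Between the sorts, most members were lower in sort 2. From TMM-scaled CPM the log2 ratio of sort 2 to sort 1 was below 0 for 35 of 51, or 68.6%, and above 0 for 16. Under the other scalings and after GC correction, 31 to 40 were below 0. A change of scaling moves all genes together. The member median less that of all genes was -0.22 to -0.23 under every scaling and -0.11 after GC correction. Of 12347 genes with at least 10 reads, 50.1% had a ratio below 0. The median was -0.22 for the members and -0.00031 over those 12347 genes. A difference of at least 1.5-fold was reached by 6 members, all of them lower in sort 2, against 14.7% of those 12347 genes lower and 11.5% higher, or 26.1% either way. Members are read deeply, with at least 710 reads each over both libraries. Among the 5016 genes with at least 500 reads, 4.61% were at least 1.5-fold lower and 5.34% at least 1.5-fold higher, or 9.95% either way. The 6 members are 11.8% of the 51. Counting differences either way, that is below the share of all genes tested and near that of deeply read genes. Counting lower values alone, it is near the share of all genes tested and above that of deeply read genes. No test was made of these.

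The 6 came from different steps of actin assembly. Coro1a had 4647 reads in sort 2 and 10364 reads in sort 1, a ratio of 0.470 (95% exact counting interval 0.454 to 0.487). Arpc4 had 1691 reads in sort 2 and 3203 reads in sort 1, a ratio of 0.554 (0.521 to 0.587), and Arpc3 had 286 in sort 2 and 469 in sort 1, a ratio of 0.641 (0.550 to 0.742). Of the words of Arpc4, 10.5% also occur in the neighbouring gene Ttll3. The other Arp2/3 subunits lay on both sides of 1, Arpc1b with a ratio of 0.743, against 1.19, 1.17 and 1.29 for Arpc2, Arpc5 and Actr2. Actr3 had a ratio of 0.972, and its side of 1 depends on the scaling. Vasp had 2393 reads in sort 2 and 4043 reads in sort 1, a ratio of 0.621 (0.590 to 0.653), Hcls1 1569 in sort 2 and 2639 in sort 1, a ratio of 0.624 (0.585 to 0.664), and Capg 645 in sort 2 and 1078 in sort 1, a ratio of 0.628 (0.568 to 0.692). The intervals cover counting error only, and for 44 of 51 members they exclude 1. The same count was not made over other genes, so it is not shown to be particular to the members. The SD of the log2 ratio was 0.33 for members and 0.45 for genes with at least 500 reads.

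Near the 1.5-fold line but within it was Myl6, with a ratio of 0.680, and it passed the line when RPKM values were used. The myosin II genes all had ratios below 1, at 0.859 for Myh9, 0.726 for Myl12a and 0.716 for Myl12b, although after correction for GC content that of Myh9 was slightly above 1 (log2 0.06). Both actins were lower in sort 2, Actb with a ratio of 0.783 and Actg1 with 0.810, under every scaling tried and after GC correction. Members higher in sort 2 were led by Tpm4 at 1.35-fold, Actr2 at 1.29-fold, Wipf1 at 1.27-fold, Rhoa at 1.25-fold and Rdx at 1.22-fold. After GC correction Actr2 and Rdx were each at 0.02 on the log2 scale. For Tmsb4x, Actr3, Evl, Capzb, Actn4, Iqgap1, Cdc42 and Dock2, whose log2 ratios lay between -0.04 (Actr3) and 0.07 (Iqgap1), the sign depends on the scaling. GC correction changed the sign of further log2 ratios. Zyx went from -0.18 to 0.19, Tmsb10 from -0.13 to 0.16 and Coro1b from -0.16 to 0.12. Cotl1 went from -0.29 to 0.05, Arhgdia from -0.32 to 0.02 and Capza1 from 0.12 to -0.13.

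The ratios went with the GC content of the transcripts. Across the 51 members the Pearson correlation of the log2 ratio with GC content was -0.54 and the Spearman correlation -0.53, and across 8680 genes with at least 100 reads they were -0.47 and -0.54. Genes share libraries and are not independent replicates, so these are descriptions. Of the 16 members with a GC content under 50%, 11 had a ratio above 0 on the log2 scale, with a median of 0.09. Of the 35 at 50% or more, 5 did, with a median of -0.30. Among the 8680 genes, 71.5% of those under 50% and 30.6% of those at 50% or more had a ratio above 0. Over those 8680 genes the medians of these classes were 0.19 and -0.17. The median GC content was 52.5% for members, from 1 transcript each, and 49.6% for those 8680 genes, as means over their matched transcripts. For some members the transcript used differs from the length implied by reads and RPKM. For Cfl1 it had 2354 bases against 1186, for Arpc1b 3105 against 1553 and for Myl12b 2143 against 940. GC content and shared words of such members may not be those of the transcript counted. The GC correction used the means over matched transcripts for members too. After a correction for GC content the median of the members was -0.12. Coro1a at -0.76, Arpc4 at -0.76 and Arpc3 at -0.65 still passed 1.5-fold, while Hcls1 at -0.47, Capg at -0.40 and Vasp at -0.38 did not. Of all genes with at least 10 reads and a GC value, 11.4% were then at least 1.5-fold lower and 9.90% higher.

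**Figure D4:**
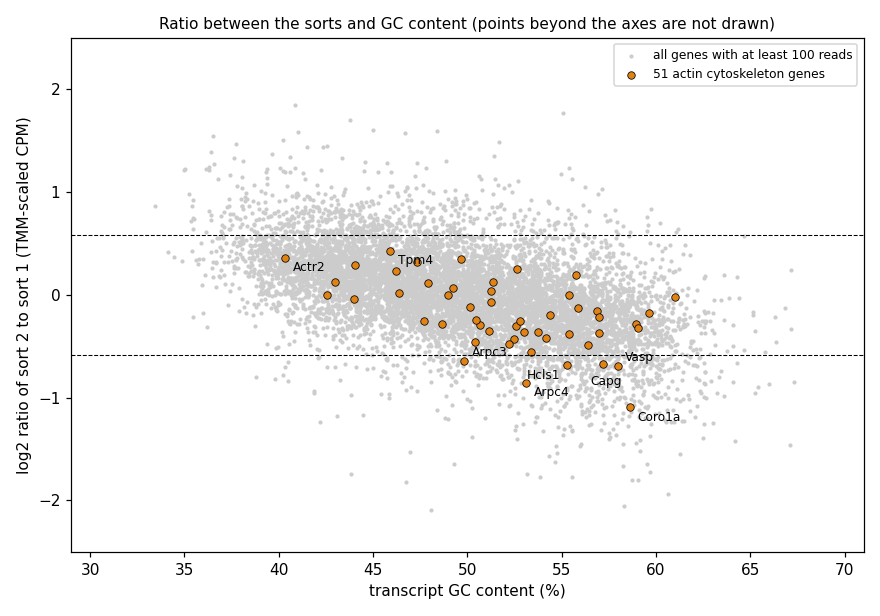
Log2 ratio of sort 2 to sort 1 (vertical axis, TMM-scaled CPM) against transcript GC content (horizontal axis, percent) for all genes with at least 100 reads (grey) and the 51 members (orange), with dashed lines at 1.5-fold. Members follow the downward slope of all genes, and Coro1a, at -1.09, is the lowest of them.

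Markers of the cell types lay on both sides of no difference between the sorts. Of the 9 neutrophil genes, 7 had a log2 ratio below 0 and 2 above, between -0.75 and 0.14. Of the 3 highest, Retnlg had 2439 RPKM in sort 2 and 2321 RPKM in sort 1, S100a9 had 716 in sort 2 and 879 in sort 1, and S100a8 had 401 in sort 2 and 398 in sort 1. All 4 neutrophil precursor genes had a log2 ratio above 0, between 0.02 and 0.49. Of the 7 macrophage genes, 7 had a log2 ratio below 0 and 0 above, between -3.14 and -0.04. The lowest, C1qa, had only 0 reads in sort 2 and 16 in sort 1. Of the 9 eosinophil genes, 8 had a log2 ratio above 0 and 1, Prg3, below, between -0.20 and 0.72. The part of other cells in the ratios of members was not tested. Of the 51 members 4 lie on the X chromosome. Flna, Msn, Tmsb4x and Was had log2 ratios of -0.36, -0.26, 0.02 and 0.19, while the median of the 386 X-linked genes tested was 0.19. Sex of the cells and sort cannot be told apart.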

How the data were processed

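Poly(A) RNA of bone marrow eosinophils was sequenced in 2 libraries of 1 group. The authors deposited, per the file headers, a count of reads and an RPKM value for each row, a row being RefSeq transcripts with a common start and end. STAR 2.4.0c and mm10 are named, per the submitters' processing notes. The counting program, strand setting and handling of reads with several places were not given in the sources used here. Values of RPKM as deposited rest on a read total larger than that of the tables, which hold 22.9% of it in sort 2 and 25.0% in sort 1.

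Rows were summed per gene symbol. Ratios of sort 2 to sort 1 are log2 TMM-scaled CPM (edgeR 4.0.16, prior count 2) for genes with at least 10 reads over both libraries, and 1.5-fold was used as the line. DESeq2 1.42.0 gave alternative size factors. Intervals are exact binomial for ratios and Wilson for shares, at 95%. With 1 library a sort, no test was made. GC content and 50-base words came from GENCODE transcripts, and upstream sequences and motifs from RefSeq (GRCm38.p6). The ratio and GC steps were tested on simulated data. Values are given for every member, with reads for those past 1.5-fold and starts for those with several rows; relatives that were not detected, and comparisons with them, were named after their values were seen. The members and lists were chosen with earlier results of these data known, and the limit of 500 reads after seeing the data. One related gene, and the family comparison that needs it, is not reported here.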

Additional observations from a re-analysis of the deposited data

How the results depend on the processing

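The level of the members, a median of 34.1 RPKM over the sort means, was 142 when reads were divided by the tables' totals and 41.6 as a mean of log2 values turned back to RPKM. Of the 6 members at least 1.5-fold lower in sort 2, 3 remained after correction for GC content (Arpc3, Arpc4 and Coro1a). Hcls1, Vasp and Capg were then at -0.47, -0.38 and -0.40. Over all genes with at least 10 reads and a GC value, 11.4% were at least 1.5-fold lower and 9.90% higher after that correction. At 2-fold without the correction 1 member remained (Coro1a), and the share of all genes at 2-fold was not computed. The median log2 ratio of -0.22 was -0.17 with total counts, -0.29 with deposited RPKM values and -0.12 after GC correction, below 0 in each. In the same order the medians of all genes were 0.05, -0.06 and -0.01. The cause was not tested. The other 54 alternative values were counted as unchanged, and 0 reversed. Unchanged meant a count within 1.5-fold, a single ratio on its side of the line, or another value within the spread. Single ratios were checked only for the 6 members past 1.5-fold, and some other members changed sign after GC correction. Several of the 54 could not have differed. Every member had at least 710 reads, so no read filter changed a count. With 2 sorts, the share of 1 always lies within their SD of the mean. Leaving out each sort in turn gave 51 to 51 members detected, a level of 30.0 to 37.8 RPKM and a share of reads of 4.20% to 4.56%. Leaving out a sort gives no ratio, so those results have no such value. No paired analysis was possible because there is 1 group only. The counting interval of the ratio excludes 1 for 44 of 51 members and holds 1 for the others, and it covers counting error only. The same count was not made over other genes.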

Other observations

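Genes that control actin outside the 51 also lay on both sides of a ratio of 1. Ssh2, a slingshot phosphatase that activates cofilin, had 29.9 RPKM in sort 2 and 35.9 RPKM in sort 1, and its opponents Limk1 and Limk2 had 0.215 RPKM in sort 2 and 0.201 in sort 1, and 1.59 in sort 2 and 1.13 in sort 1. Rhog, a Rac-related GTPase, had 21.5 RPKM in sort 2 and 46.3 RPKM in sort 1, a log2 ratio of -1.03, close to the -1.09 of Coro1a. Pxn, paxillin, had 32.3 RPKM in sort 2 and 40.7 RPKM in sort 1, and Vim, vimentin of intermediate filaments, 54.0 in sort 2 and 54.8 in sort 1. These genes were named after their values were seen, and no test was made.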
